A study of Arabidopsis thaliana with 6 samples.

Results

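A set of 10 loci of Arabidopsis thaliana that encode secreted proteins with 8 conserved cysteines was followed in roots given gold and in roots without it. The loci were AT4G22460, AT4G22470, AT4G12490, AT4G12500, AT4G12510, AT4G12520, AT4G12545, AT5G46890, AT5G46900 and AT1G12090, which RefSeq calls ELP, for extensin-like protein. They were chosen by protein family and by the gold against no gold difference of AT4G22460, one of the largest falls in these arrays, so that contrast is given here as a description. Of the 10 loci, 8 had a probe set in the probe annotation. AT4G22460, AT4G22470, AT4G12490 and AT4G12500 each had a probe set of their own. AT4G12510 and AT4G12520 shared 1 probe set, and AT5G46890 and AT5G46900 shared another, so the loci of each pair could not be told apart. AT4G12545 and AT1G12090 had none and are not analysed here. The set therefore comes to 6 probe sets among 22746 tested.

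The fold common to these proteins is a small bundle of helices pinned by disulfide bridges between its cysteines, and the proteins are secreted into the cell wall space. In lipid-transfer proteins the bundle encloses a hydrophobic cavity that can hold a lipid, while hybrid proline-rich proteins carry a proline-rich stretch ahead of the 8-cysteine domain. Across plants the family is known for the export of cutin and suberin precursors, for cell wall properties and for defence signalling. Several listed loci lie in tandem clusters: AT4G12490 to AT4G12545 stand on chromosome 4 beside AZI1 (azelaic acid induced 1), EARLI1 (early Arabidopsis aluminum induced 1) and AIR1 (auxin-induced in root cultures 1), as RefSeq names them. Those 3 neighbours were not analysed here.

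The 6 samples were Affymetrix ATH1 arrays of roots of plants of ecotype Col 0, grown in sterile sealed jars of nutrient solution for 14 days, with many plants on the raft of each jar. In the gold group, 3 replicate jars had their medium replaced by 0.125 mM KAuCl4, a soluble gold(III) salt, in water at pH 5.7. The no gold group was 3 jars that the sample labels call untreated and the design text calls water-treated. Whether their medium was also replaced is therefore not settled. If it was not, gold and the change of medium cannot be told apart. The sample labels give 24 h and the treatment protocol gives 6 h, so the length of exposure is not settled.

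Deposited values were log-scale and centred so that each probe set had a median of 0 over the 6 arrays. They show differences between arrays but no expression levels, and precision is limited by how few arrays there are. With 3 arrays against 3, this centring also makes the 2 middle values of a probe set equal and opposite. The base of the logarithm was not stated and was read as 2. One array stood apart: in no gold replicate 1, the centred 5′ minus 3′ value was -4.89 for the newer actin control probe sets and -2.55 for those of GAPDH, against -1.02 to 0.38 and -0.21 to 0.03 elsewhere, which is a lower 5′ to 3′ ratio than on the other arrays. The older GAPDH pair was also low on that array (-4.70, against -0.59 to 0.54), while the older actin pair was at -0.26, against -0.20 to 0.17. Results are therefore also given without no gold replicate 1. Because these are bulk roots, fewer cells of a type and less RNA per cell cannot be told apart. Levels were not available, so the labelled tissue could not be checked by the presence of its markers.

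The set split into large falls and probe sets with little difference. In the limma fit over the whole array, 3 of the 6 probe sets, standing for 5 loci, were lower with gold at an adjusted p below 0.05, 3 did not pass and 0 were higher. Over all probe sets tested, 10.9% were lower and 9.32% were higher by the same rule, and since this contrast helped to choose the loci, nothing is read from the comparison. None of the 3 others was higher at an unadjusted p below 0.05 either. The ordinary equal-variance test also called 3 lower and 0 higher, beside 1015 and 922 of the 22746 probe sets tested. The gold and no gold values did not overlap in the same 3 probe sets, each with gold lower, and no probe set had all gold arrays higher, beside 21.6% and 15.6% of all probe sets. The median difference of the 6 probe sets was -1.47 on the log2 scale, which lies between the falls and the others and describes no single probe set. For all probe sets the median was -0.04, and nothing is read from that comparison either. Without no gold replicate 1 the counts were again 3 lower and 0 higher, beside 11.9% and 9.46% of all probe sets.

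The deepest fall was that of the probe set shared by AT5G46890 and AT5G46900, neighbouring lipid-transfer-like loci on chromosome 5. Its centred log2 values were 3.52, 2.94 and 2.73 in no gold replicates 1 to 3 and -4.20, -2.73 and -4.10 in gold replicates 1 to 3. Every gold array lay far below every no gold array, with a gap of 5.45 between the nearest values of the groups, and gold replicate 2 was the least low of the gold arrays. The difference was -6.74 ± 0.41 on the log2 scale (SE, n = 3 and 3), which is a 107-fold lower signal if the base is 2. Only 1 of the 22746 probe sets tested, an unnamed one at -7.05, fell further. The fall was -6.51 without no gold replicate 1.

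AT4G22460, the locus on chromosome 4 that led to the list, had centred log2 values of 2.35, 2.30 and 1.97 without gold and of -1.97, -2.02 and -2.74 with gold. The groups were apart by 3.94, and gold replicate 3 was the lowest array. Its difference was -4.45 ± 0.24 (SE, n = 3 and 3), a 21.8-fold lower signal, and it ranked 20 from the largest fall. The difference was -4.38 without no gold replicate 1.

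AT4G12510 and AT4G12520, adjacent in the tandem cluster with AZI1 and EARLI1, had a smaller fall in their shared probe set. The centred log2 values were 1.32, 1.22 and 1.12 without gold, an SD of 0.10, and -1.12, -1.67 and -2.07 with gold, an SD of 0.48. All 3 gold arrays were below all 3 no gold arrays, and the gold arrays were the more spread. The difference was -2.84 ± 0.24 (SE, n = 3 and 3), a 7.16-fold lower signal, ranked 134 from the largest fall, and it was -2.79 without no gold replicate 1.

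**Figure D1:**
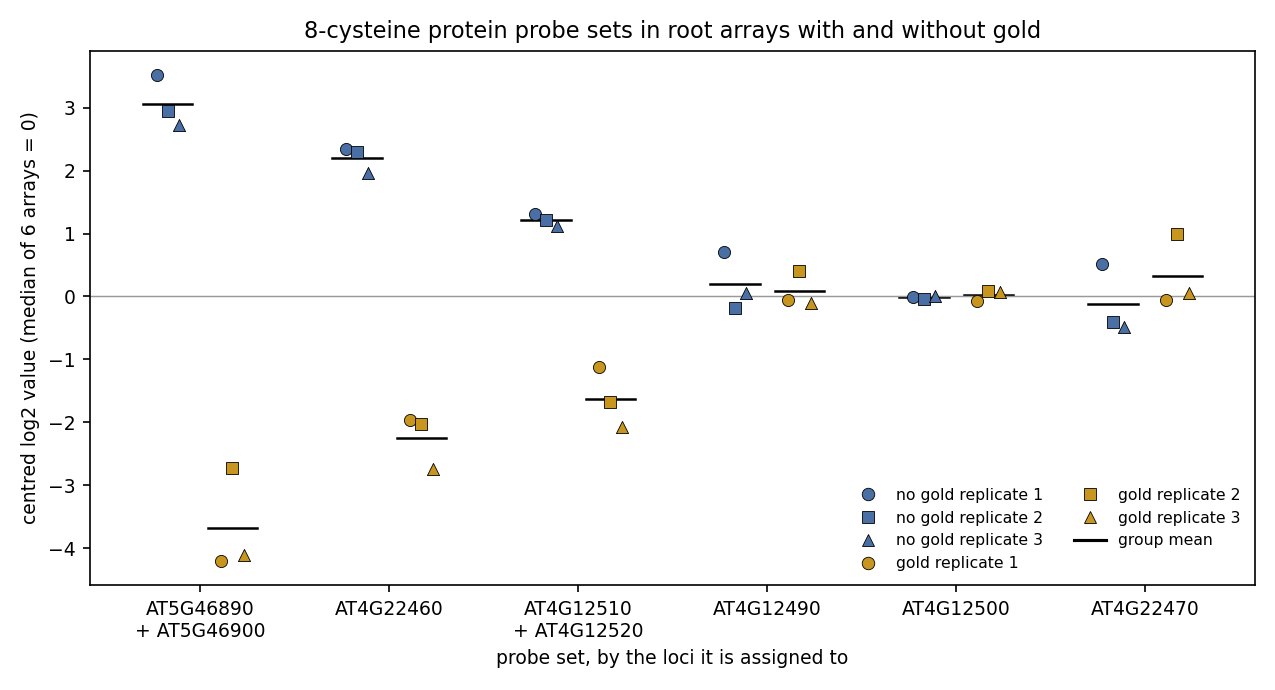
Centred log2 value of each of the 6 probe sets on every array, by group (colour) and replicate (symbol), with a line at each group mean. The 3 probe sets on the left are apart between groups, by 5.45 for AT5G46890 and AT5G46900, 3.94 for AT4G22460 and 2.24 for AT4G12510 and AT4G12520, while the groups overlap in the 3 on the right.

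The remaining 3 probe sets showed no fall that passed. AT4G12500, which RefSeq places immediately before AT4G12510 in the cluster, had values of 0.00, -0.05 and 0.00 without gold and -0.08, 0.09 and 0.08 with gold. It was nearly flat over the 6 arrays: its pooled SD within groups was 0.0667, below the median of 0.248 over all probe sets, and only 1.86% of probe sets had a smaller one. Its difference was 0.04 ± 0.14 (SE, n = 3 and 3). Centred values do not show whether this probe set was above background.

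AT4G12490, the next locus of that cluster, varied more between jars than between groups. Its values were 0.70, -0.19 and 0.06 without gold and -0.06, 0.41 and -0.11 with gold. No gold replicate 1 was the highest array, the groups overlapped, and the difference was -0.11 ± 0.26 (SE, n = 3 and 3), or 0.15 without that array.

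AT4G22470, the next locus with a probe set after AT4G22460 on chromosome 4, had no fall. Its values were 0.51, -0.40 and -0.48 without gold and -0.06, 0.99 and 0.06 with gold. The highest array was gold replicate 2 and the next was no gold replicate 1, so the groups overlapped. The difference was 0.46 ± 0.36 (SE, n = 3 and 3). It was 0.12 without gold replicate 2 and 0.77 without no gold replicate 1, the lowest and highest with 1 array left out, and passed in neither.

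Pooled SDs within groups ranged over each other in the probe sets that fell and those that did not pass. The pooled SD was 0.339 for AT4G22460 and 0.346 for AT4G12510 and AT4G12520, close to the 0.383 of AT4G12490, which had no called difference. It was 0.651 for AT5G46890 and AT5G46900 and 0.565 for AT4G22470, above that of 96.1% and 93.6% of all probe sets. Each of the 3 called falls exceeded the pooled SD of its own probe set several times over. That is no added evidence, because the limma fit that called them already compares the difference with the spread within groups.

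Measured loci beside the clusters were compared in the gene order of RefSeq (TAIR10.1, used for order alone). For each cluster the 3 nearest loci on each side with a probe set of their own were taken. They stood from 1 to 17 protein-coding genes from the cluster, so many nearer genes were not compared. Loci outside the family that lay within a cluster were added. The whole choice was made after the members' values were known. Of these 26 loci outside the family, 4 were lower and 1 was higher by the limma fit, beside 10.9% and 9.32% of all probe sets. The other 21 did not pass, and the differences of all 26 ran from -1.76 to 2.93. Beside AT4G22460, the loci AT4G22440, AT4G22430 and AT4G22410 on one side were at -0.01, -0.14 and -0.04. AT4G22490, a further 8-cysteine locus of that cluster, was at -0.13 ± 0.20. At the cluster's far end, AT4G22530 rose by 2.93 ± 0.23 (SE, n = 3 and 3, limma adjusted p = 0.000142). It lies beside the 8-cysteine locus AT4G22520, which had no probe set in the annotation. Around AT5G46890 and AT5G46900 all 6 flanking loci failed to pass, from -0.41 for AT5G46850 to 0.86 for AT5G46910. On one side AT5G46850, AT5G46840 and AT5G46780 stood 8, 9 and 17 protein-coding genes away, so the immediate neighbours there were not compared.

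Around the AT4G12490 cluster, SKU5, which encodes a protein of directional root growth, fell by 1.30 ± 0.27 (limma adjusted p = 0.013). AT4G12600 fell by 1.06 ± 0.19 (limma adjusted p = 0.00693). SKU5 and AT4G12600 stood 5 and 6 protein-coding genes from the cluster. Within it, AT4G12530, an 8-cysteine locus just after AT4G12520, was at 0.08 ± 0.16 and did not pass. Hop3, a co-chaperone of the heat shock system, stood 7 protein-coding genes from the cluster and was at 1.42 ± 0.45 (limma adjusted p = 0.0643). AT1G12090 itself had no probe set in the probe annotation. Its 8-cysteine neighbour AT1G12100 was at -0.46 ± 0.20 (limma adjusted p = 0.161), while AT1G12080 on the other side fell by 1.76 ± 0.27 (limma adjusted p = 0.00353). Beyond AT1G12100, AT1G12150 fell by 1.26 ± 0.22 (limma adjusted p = 0.00606).

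**Figure D2:**
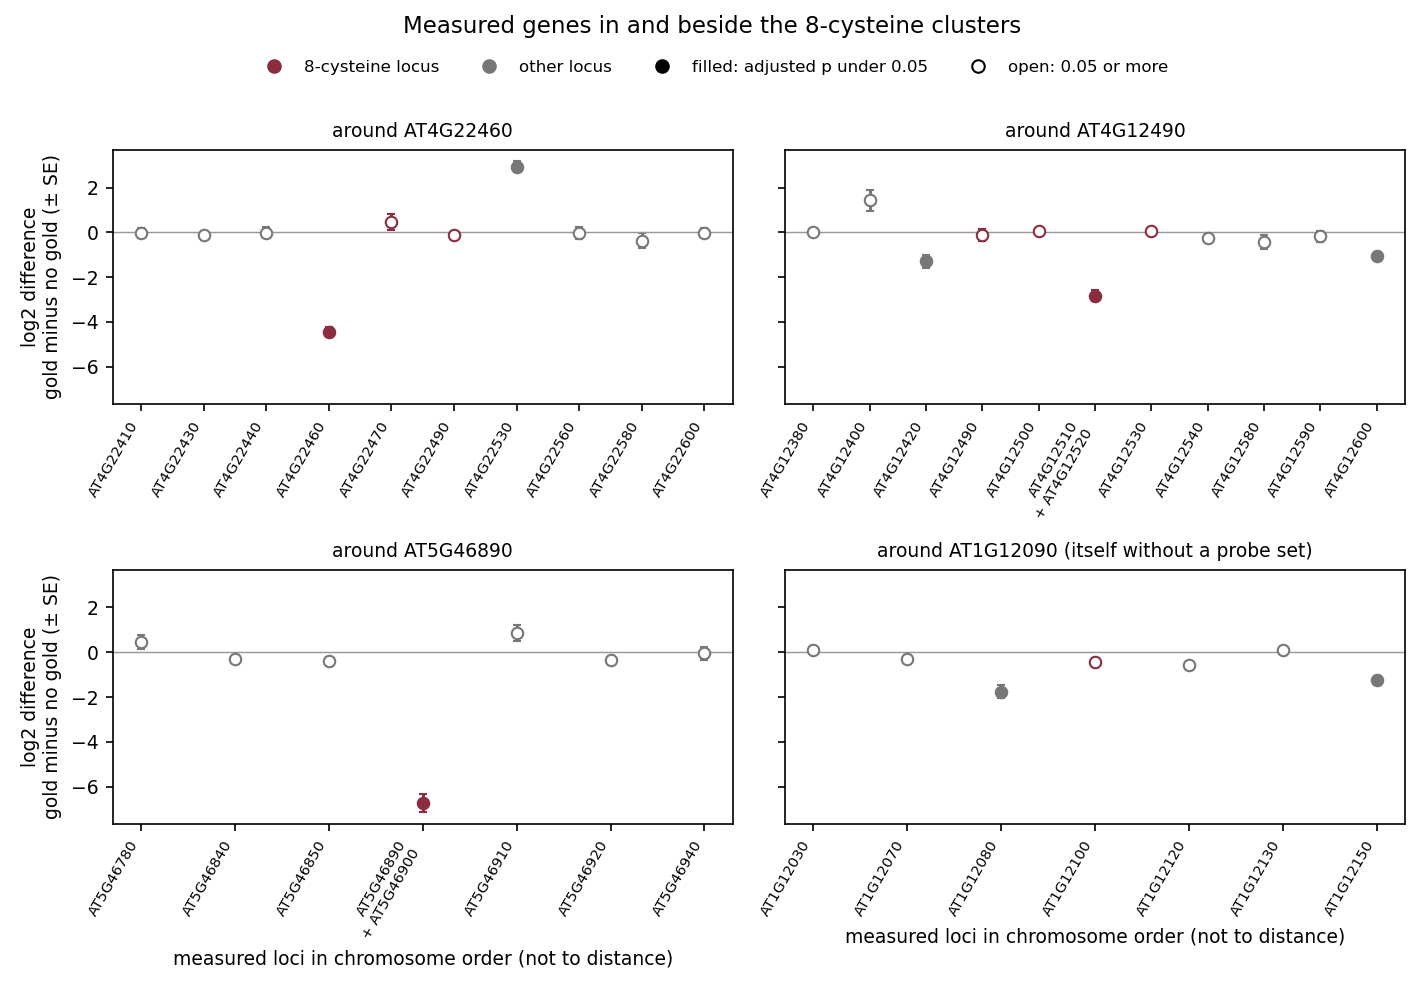
Log2 difference (gold minus no gold, ± SE of the limma fit, 3 arrays per group) of measured loci in chromosome order around 4 clusters, with 8-cysteine loci in red and other loci in grey; filled points passed an adjusted p of 0.05. The falls of -4.45, -2.84 and -6.74 exceed those of all other loci plotted. The set was chosen partly by the fall of AT4G22460, and the flanking loci after the members' values were known. Nothing is therefore read from that contrast. Of the other loci, SKU5 (AT4G12420), AT4G12600, AT1G12080 and AT1G12150 were lower and AT4G22530 was higher.

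Other 8-cysteine loci were taken from 3 lists assembled by family knowledge, with earlier results of these data known. Nothing is therefore read from the shares called in these lists. Of their 51 loci, 19 had a probe set that names that locus alone. Of these, 3 were lower and 4 were higher with gold by the limma fit and 12 did not pass, beside 10.9% and 9.32% of all probe sets. Their median difference was -0.01. Without no gold replicate 1, 2 were lower and 4 higher, beside 11.9% and 9.46% of all probe sets.

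The lower ones all belonged to the list of other hybrid proline-rich proteins. In that list 3 of 7 measured loci fell and 0 rose, beside 10.9% and 9.32% of all probe sets, and 4 did not pass. The median was -0.46. At an unadjusted limma p below 0.05 the counts were also 3 and 0. The share of all probe sets at that cutoff was not computed, so nothing is read from these counts. AT2G45180 had values of 0.99, 1.34 and 1.06 without gold and -0.99, -1.35 and -1.63 with gold. The groups were apart by 1.97, and it fell by 2.45 ± 0.21 (SE, n = 3 and 3; limma adjusted p = 0.000204). AT1G62510 had values of 0.89, 0.69 and 0.65 without gold and -0.81, -0.97 and -0.65 with gold, and it fell by 1.55 ± 0.16 (limma adjusted p = 0.000529).

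AT2G10940 fell by 0.88 ± 0.25 (limma adjusted p = 0.041), a call lost when any array other than no gold replicate 3 was left out (limma adjusted p 0.0591 to 0.152). The others of the list, AT1G12100, AT4G22490, AT1G62500 and AT4G12530, lay between -0.46 and 0.08.

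AT1G62510 and AT1G62500 are neighbours on chromosome 1, and AT1G62500 did not pass. It was at 0.05 ± 0.18 (limma adjusted p = 0.913). On each array the centred value of AT1G62510 minus that of AT1G62500 was 0.83 ± 0.12 without gold and -0.77 ± 0.39 with gold (SD, n = 3 and 3). The difference between groups, -1.60, had a two-sided exact permutation p of 0.1, the smallest this test can give with 3 against 3 arrays. The pair was singled out after its values were seen, so the p is no support for a split.

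Loci on the list of GPI-anchored and DIR1-like lipid-transfer proteins included rises and no fall that passed. Such proteins are held at the outer face of the plasma membrane by a lipid anchor or act as mobile signals in defence. Of 9 measured loci, 4 rose and 0 fell, beside 9.32% and 10.9% of all probe sets, and 5 did not pass. The median was 0.24. At an unadjusted limma p below 0.05 the counts were 4 higher and 1 lower. Again the share of all probe sets was not computed, and nothing is read from the counts. AT1G05450 had values of -0.86, -2.03 and -2.13 without gold and 0.86, 1.70 and 1.12 with gold. No gold replicate 1 was the highest of its group, yet the groups were apart by 1.73, and the rise was 2.91 ± 0.37 (SE, n = 3 and 3; limma adjusted p = 0.00133).

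AT3G22620 had values of -1.53, -0.88 and -0.98 without gold and 0.93, 1.25 and 0.88 with gold, and it rose by 2.14 ± 0.22 (limma adjusted p = 0.000453). AT2G48130 rose by 1.14 ± 0.16 (limma adjusted p = 0.00219) and AT2G44300 by 0.88 ± 0.18 (limma adjusted p = 0.0116). The last call was lost without gold replicate 3 (limma adjusted p = 0.0607) and with the ordinary equal-variance test (adjusted p = 0.058). AT2G27130, at -0.75 ± 0.25 (limma adjusted p = 0.0729), passed only without gold replicate 1, where it was -0.97 (limma adjusted p = 0.0226). Without no gold replicate 1 the list again had 4 loci higher and 0 lower, beside 9.46% and 11.9% of all probe sets.

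None of the 3 measured classical lipid-transfer proteins passed the limma fit, of 12 listed, nor did any at an unadjusted p below 0.05 or by the ordinary equal-variance test. AT5G01870 was at -0.39 ± 0.23, AT2G15325 at -0.01 and AT2G18370 at 0.14. Whether the lists differ from each other in their response was not tested.

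**Figure D3:**
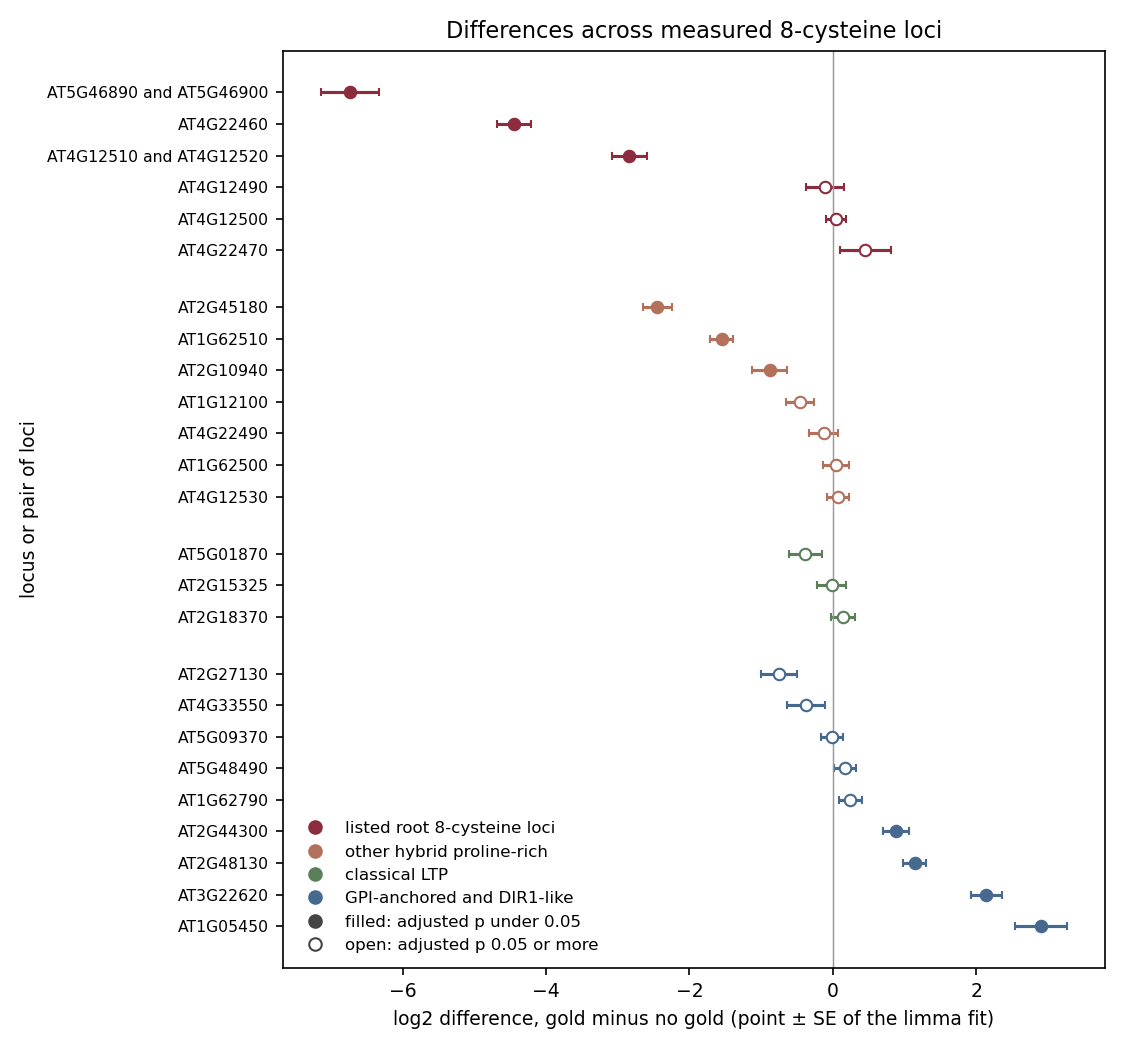
Log2 difference (gold minus no gold, ± SE of the limma fit, 3 arrays per group) of 25 probe sets for 8-cysteine loci, by list; filled points passed an adjusted p of 0.05. The listed root loci range from -6.74 to 0.46, other hybrid proline-rich loci from -2.45 to 0.08, classical lipid-transfer proteins from -0.39 to 0.14 and the GPI-anchored and DIR1-like list from -0.75 to 2.91, so the lists overlap.

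Of 8 measured cell type markers, 5 were lower with gold, 0 were higher and 3 did not pass. Over all probe sets, 10.9% were lower and 9.32% were higher. The marker lists were also chosen with earlier results of these data known, so nothing is read from that comparison. The part of the markers in the falls above was not tested. All 3 measured root hair markers, of 8 listed, were lower: EXPA7 (-2.34) and EXPA18 (-2.36), which loosen walls of growing hairs, and the peroxidase AT1G30870 (-2.53). Their mean centred value lay between 0.57 and 1.44 in no gold arrays and between -1.75 and -0.57 in gold arrays. In the cortex list, 2 of 3 loci were measured; AT1G09750 fell by 2.59 ± 0.34 (limma adjusted p = 0.00154), whereas AT1G62500, the hybrid proline-rich locus above, did not pass. The mean of both was 0.35 to 0.59 without gold and -1.29 to -0.37 with gold.

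Of 2 measured shoot markers, RCA, the Rubisco activase, fell by 1.49 ± 0.23 (limma adjusted p = 0.00305) and PRK was at -1.48 (limma adjusted p = 0.0737). The shoot mean was 0.50 to 1.68 without gold and -0.75 to -0.28 with gold. The phloem gene SWEET11 was at -0.81 (limma adjusted p = 0.0759), between -0.06 and 0.67 without gold and between -0.61 and 0.06 with gold. No locus of the endodermis, suberin, xylem or root cap lists had a probe set naming it alone. Which listed marker is absent from these roots could not be judged from centred values.

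Genes with the pattern most like that of AT4G22460 were sought among 13432 probe sets naming 1 gene, by the Euclidean distance between the 6 centred values. The nearest was AT3G45710, at a distance of 0.467, with values of 2.23, 2.09 and 2.10 without gold and -2.09, -2.38 and -2.70 with gold. AT5G04730 (0.870), AT3G61930 (0.975), AT5G19970 (0.998) and AT1G07560 (1.04) followed. In all 5 the groups were apart, and their differences were between -4.72 and -3.79, which the measure favours because it counts size. The other probe sets of the 10 listed loci were farther away: 2.06 for AT4G12510 and AT4G12520, 3.12 for AT5G46890 and AT5G46900, and from 5.39 to 6.10 for the 3 of them without a called difference.

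**Figure D4:**
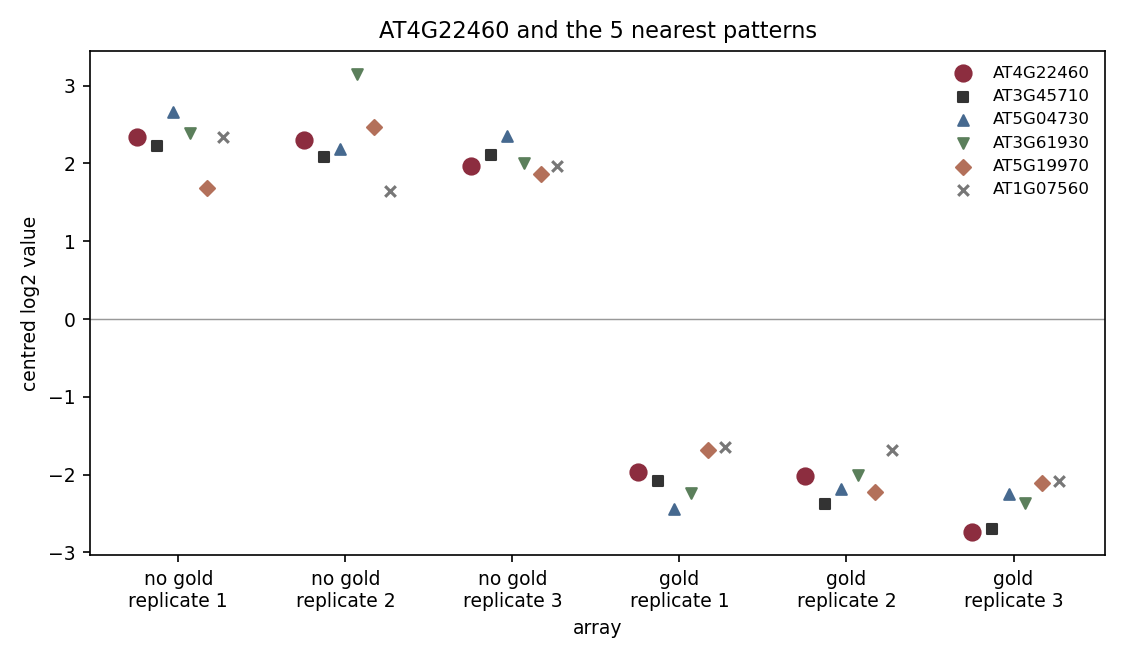
Centred log2 values of AT4G22460 (large red points) and of the 5 genes at the smallest Euclidean distance from it, on each of the 6 arrays. On no gold arrays AT4G22460 lies between 1.97 and 2.35 and on gold arrays between -2.74 and -1.97. Each of the 5 genes is above 0 without gold and below 0 with gold, which follows from their choice by distance.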

How the data were processed

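The deposited table gives log2 values (base 2 assumed) for 22810 probe sets, centred by the authors to a row median of 0 within 5e-07, as read from the values. How probes were summarised and arrays scaled is not given in the sources used. Per the labels' protocols, RNA was extracted with a Qiagen plant kit and labelled with MessageAmp II. Without the 64 control probe sets, the remaining 22746 were fitted with limma 3.58.1 (R 4.3.3; lmFit, eBayes), gold minus no gold, two-sided, Benjamini-Hochberg adjusted over all of them, with a threshold of 0.05. No filter on dim probe sets or background correction was possible on centred values. Replicates are separate jars, per the design text. Genes came from the platform annotation by gene ID: 13513 probe sets named 1 gene, 503 several, and 8730 tested ones none. RefSeq TAIR10.1 gave symbols and gene order; coordinates are not given because the array values name no build, and no sequence is shown.

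The loci and lists were chosen with earlier results of these data known. Named genes were all listed loci with a probe set, all other 8-cysteine loci with a probe set naming them alone, measured cell type markers, and the 5 genes nearest to AT4G22460; flanking loci were added later. A planned search of the whole superfamily by RefSeq description or protein was not run, as these were not used here. Alternatives were array median centring, quantile normalization, a block for the replicate number, leaving out each array, an ordinary equal-variance test, limma treat at 1.5-fold, robust empirical Bayes, and probe sets without a shared-sequence suffix. In simulated gold against no gold values, 100 of 22746 probe sets were changed by 1 and 100 by 2 on the log2 scale. The values were otherwise independent normal noise. Of these changes 34 and 78 were called, with 4 unchanged ones called. Far more probe sets were called in the real data, so these rates do not carry over to them. The deviations of same-numbered arrays from their groups correlated at -0.11, -0.25 and 0.28. With so few arrays and centred values, this cannot settle whether same-numbered jars were paired. The main fit did not take the numbers as pairs, and the block for the replicate number is the alternative that does. Tables and figures used Python 3.11.15, pandas 2.3.3, numpy 2.4.6 and matplotlib 3.10.9.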

Additional observations from a re-analysis of the deposited data

How the results depend on the processing

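All 3 falls among the listed loci kept direction and call under array median centring, quantile normalization, the replicate block, the ordinary test, treat, robust empirical Bayes and each array left out, with 3 to 3 called lower and 0 to 0 higher with 1 array left out; with the replicate number as a block the fit also called 3 lower. Counting only probe sets without a shared-sequence suffix leaves 1 called lower, AT4G22460, because the other 2 serve locus pairs. Differences over these alternatives ran from -8.05 to -6.48 for AT5G46890 and AT5G46900, from -5.46 to -4.20 for AT4G22460 and from -3.42 to -2.61 for AT4G12510 and AT4G12520. Among the other 8-cysteine loci, 2 to 3 were lower and 3 to 4 higher with 1 array left out, and treat at 1.5-fold called 2 higher. AT2G10940 lost its call with the replicate block (limma adjusted p = 0.0539), the ordinary test (adjusted p = 0.155) and treat (adjusted p = 0.773), AT2G44300 with treat (adjusted p = 0.470) and AT2G48130 with treat (adjusted p = 0.0562); the replicate block changed no other call among these loci. Over the whole array the ordinary test called 1015 lower and 922 higher, treat 757 and 968, against 2480 and 2121; with 1 array left out there were 1258 to 2717 lower and 1262 to 2432 higher. Which cause lies behind the differences among arrays was not tested. No called value reversed. Centred values hide signal over background, so a flat probe set such as that of AT4G12500 may be dim.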
